A study of Caenorhabditis elegans with 8 samples.

Results

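The homeobox, basic helix-loop-helix (bHLH) and T-box genes of the nematode Caenorhabditis elegans were followed in whole young adults of 2 genotypes fed 2 kinds of bacteria. They were chosen by name alone, as every gene of the deposited expression table called ceh, hlh or tbx with a number. This gave 109 of 41560 listed genes, of which 65 were ceh (homeobox), 25 were hlh (bHLH) and 19 were tbx (T-box). The reference annotation held all 109 names, 108 as protein-coding genes and ceh-85 as a pseudogene. The names do not cover the whole families, since homeobox genes such as alr-1 and bHLH genes such as lin-32 carry other names.

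Homeobox genes encode DNA-binding proteins that set position along the body and fix the identity of neurons and other cells. bHLH proteins bind DNA as pairs, often a widely present E protein with a tissue-restricted partner, and are best known for specifying neurons and muscle. T-box proteins act in early blastomere fates and in the forming pharynx. In the worm many of these genes are most active in embryos and in small numbers of cells, so in RNA from a whole adult fewer cells of a type and less RNA per cell cannot be told apart.

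The 4 groups had 2 libraries each. Wild-type worms (Bristol strain N2) were fed either Escherichia coli BW25113, the control food, or the hns mutant of that strain, in which the gene for the nucleoid protein H-NS is knocked out. The daf-16(mgDf50) mutants, which carry a deletion allele of the gene for the FOXO transcription factor of insulin-like signalling, were fed the same 2 bacteria. All worms were grown at 20 °C on agar plates (NGM). The labels do not state that replicate libraries came from separate cultures, so p-values measure only how far these samples differ, which may be technical.

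Levels were FPKM (fragments per kilobase of transcript, scaled to the size of the library), which allow genes to be compared per length. Each library listed 18137 to 18647 genes above 0, and its low values implied roughly 22900000 to 26800000 fragments. Replicate 1 of wild type on hns food lay farthest out on the first principal component, at 53.5 against 20.1 for its replicate. As a check of the labels, daf-16 itself stood at 69.9 to 77.4 FPKM in the 4 wild-type libraries and at 15.8 to 19.2 FPKM in the 4 mutant libraries. Differences were tested with limma on log2(FPKM + 1) over the 14564 genes that reached 1 FPKM in 2 or more of the 8 libraries, with Benjamini-Hochberg adjustment, and a gene was called at an adjusted p under 0.05. Fold changes are on the log2(FPKM + 1) scale, which understates the change of low genes. Exact permutation of 2 against 2 libraries cannot reach that threshold for a single gene.

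Of the 109 genes, 75 were tested (51 ceh, 14 hlh and 10 tbx), and 34 were too low. Among the tested genes, 57 reached 1 FPKM in all 8 libraries. Without the libraries on hns food, 6 of the 75 (ceh-2, ceh-8, ceh-17, ceh-33, ceh-63 and ceh-76) would not have passed the filter. Counts over the 75 therefore describe the genes that passed and not the families.

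The most abundant of the ceh genes were of the CUT class, whose proteins carry a second DNA-binding domain beside the homeodomain. The levels of ceh-44 ran from 80.2 to 92.1 FPKM over the 8 libraries and those of ceh-38 from 79.6 to 88.4 FPKM, so this pair overlapped. ceh-49 followed at 38.6 to 52.0 FPKM and did not overlap with either. Below it, ceh-20 (18.2 to 32.7 FPKM), ceh-92 (24.9 to 29.1 FPKM) and ceh-74 (20.2 to 27.3 FPKM) overlapped in their ranges.

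Among the hlh genes the highest were hlh-2 (27.4 to 34.5 FPKM), the worm E protein and common dimer partner, hlh-11 (26.1 to 34.5 FPKM), and hlh-30 (21.7 to 32.6 FPKM), the TFEB orthologue of lysosome and autophagy control. These 3 overlapped in their ranges. The achaete-scute type genes hlh-3 (7.28 to 11.4 FPKM) and hlh-14 (4.15 to 11.4 FPKM) and the MyoD orthologue hlh-1 (3.89 to 9.04 FPKM) came next. Among the tbx genes, tbx-9 (30.4 to 38.1 FPKM) and tbx-36 (27.5 to 35.4 FPKM) stood clear of the rest. They were followed by tbx-2 (6.23 to 12.6 FPKM), tbx-33 (6.78 to 8.10 FPKM), tbx-11 (3.01 to 6.43 FPKM) and tbx-8 (1.08 to 2.39 FPKM). Genes of these families with other names reached higher levels, such as the homeobox gene pal-1 at 298 to 378 FPKM and the bHLH gene mxl-1 at 320 to 371 FPKM, and the T-box gene sea-1, at 23.6 to 31.1 FPKM, overlapped tbx-9 and tbx-36.

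**Figure D1:**
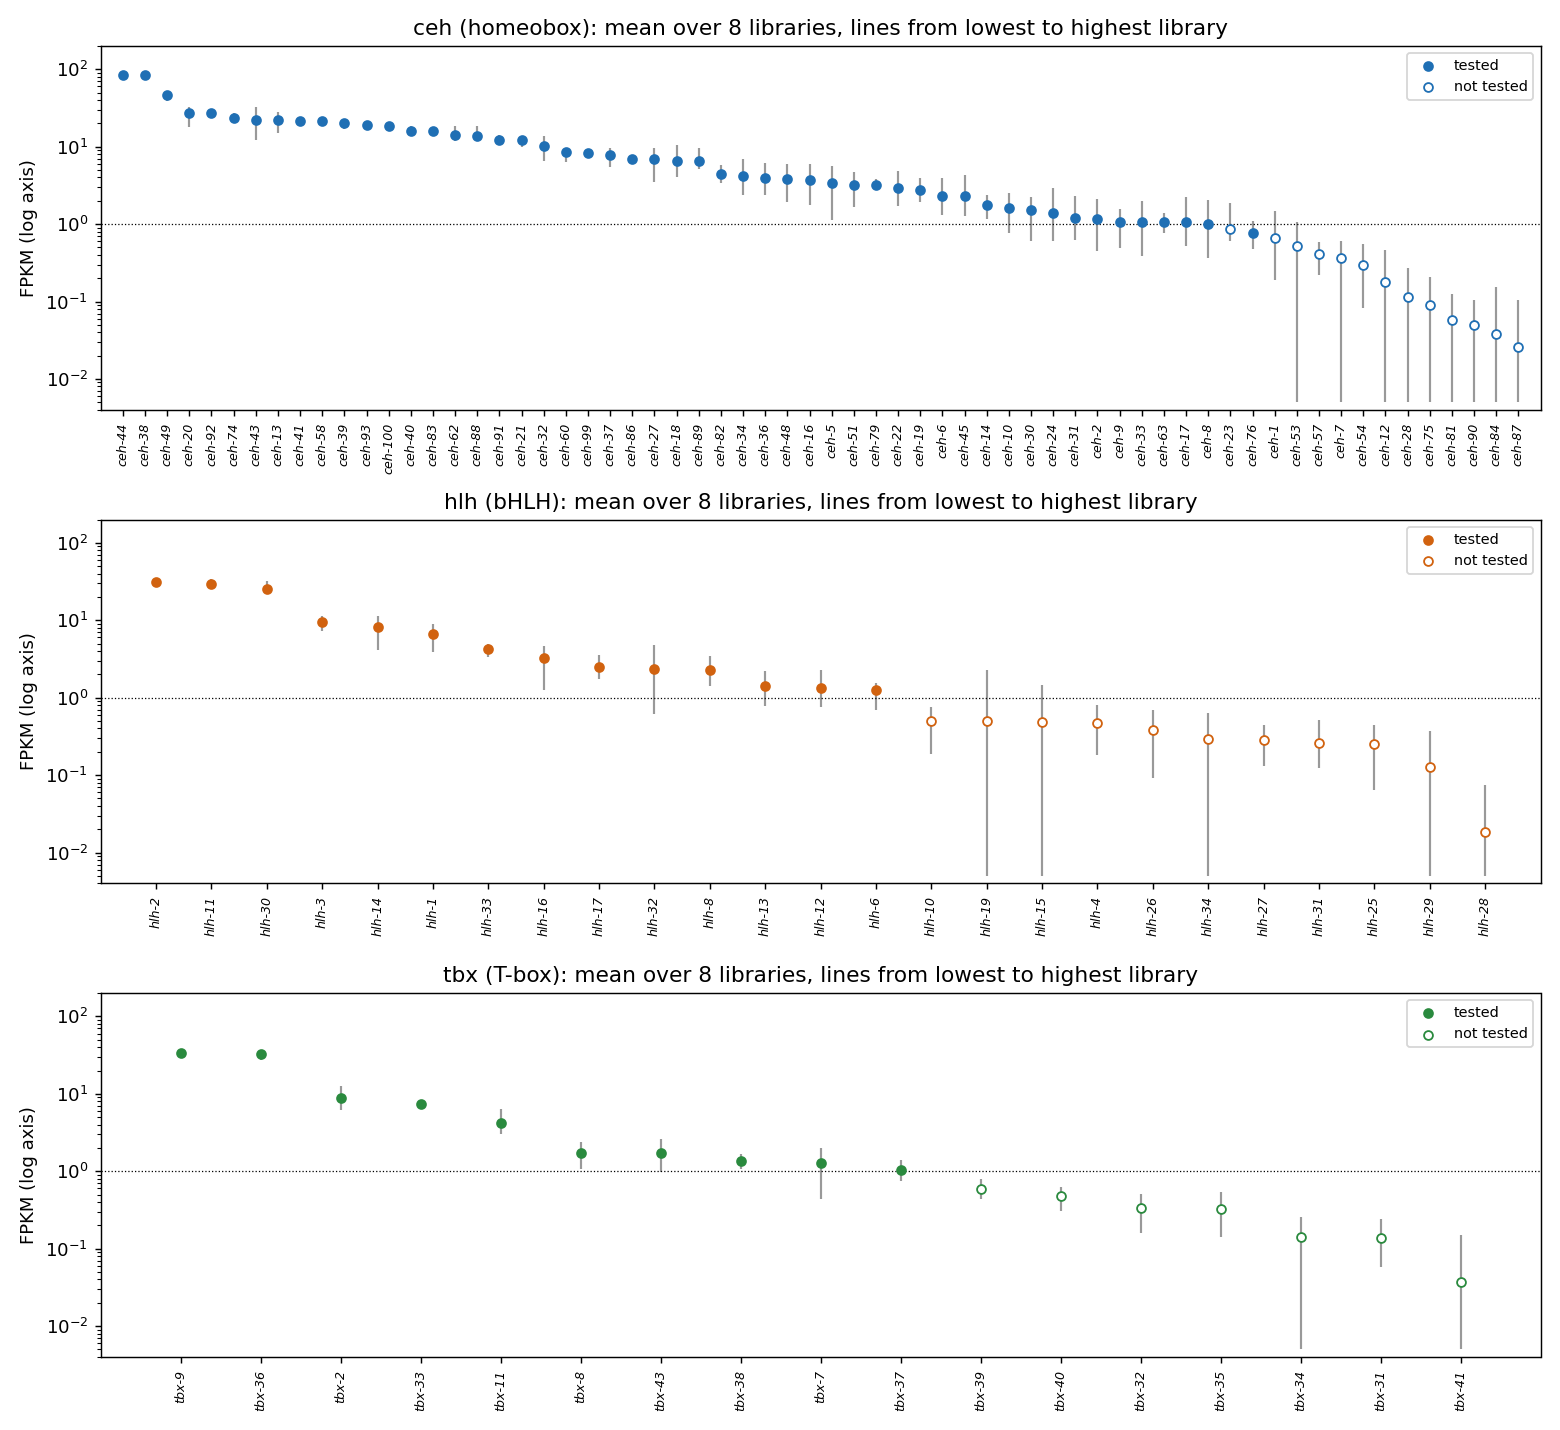
Mean FPKM over 8 libraries (points, log axis) of the 106 genes listed above 0 in any library, by family, with lines from the lowest to the highest library. Lines that reach the lower end, at 0.005 FPKM, include libraries listed at 0, the dotted line marks 1 FPKM, and ceh-85, tbx-30 and tbx-42, at 0 in all 8 libraries, are not drawn.

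The 34 genes that were not tested comprised 14 ceh, 11 hlh and 9 tbx genes. The highest were ceh-23, ceh-1 and ceh-53 among homeobox genes, hlh-10, hlh-19 and hlh-15 among bHLH genes, and tbx-39, tbx-40 and tbx-32 among T-box genes. The highest single value among them was 2.29 FPKM, for hlh-19 in replicate 1 of daf-16 on control food. Of the 34, 15 were above 0 in all 8 libraries and 3 were listed at 0 in all 8. All 5 listed genes of the REF-1 family of Notch targets (hlh-25 to hlh-29) were among those not tested.

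The first comparison asked how the hns food changed these genes in wild-type worms. In all, 2 homeobox genes of the NK and Distal-less group rose, ceh-43 and ceh-27, and no gene of the 3 families fell. ceh-43, the Distal-less orthologue, acts in the anterior epidermis and in dopamine neurons. Its levels were 12.4 and 12.3 FPKM on control food and 22.5 and 25.6 FPKM on hns food. The hns libraries were both higher, with a fold of 1.94 between the group means and a log2 fold change of 0.90 ± 0.12 (SE, n = 2 per group, limma adjusted p = 0.0354). ceh-27, an NK-2 type gene, stood at 4.35 and 3.53 FPKM on control food and 8.78 and 9.75 FPKM on hns food. Its groups were also well apart, with a fold of 2.35 and a log2 fold change of 1.06 ± 0.13 (limma adjusted p = 0.0297).

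These 2 calls made up 2.67% of the 75 tested genes, against 0.645% called higher and 0.872% called in either direction among all genes tested. The log2 fold changes stayed alike when 1 library was left out, at 0.81 to 0.99 for ceh-43 and 0.94 to 1.18 for ceh-27, but the calls did not. With any 1 of the 4 wild-type libraries or either daf-16 library on control food left out, 0 genes of the families were called, and with either daf-16 library on hns food left out only ceh-43 was. Quantile normalization gave 0 calls and median scaling gave 1, ceh-27.

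**Figure D2:**
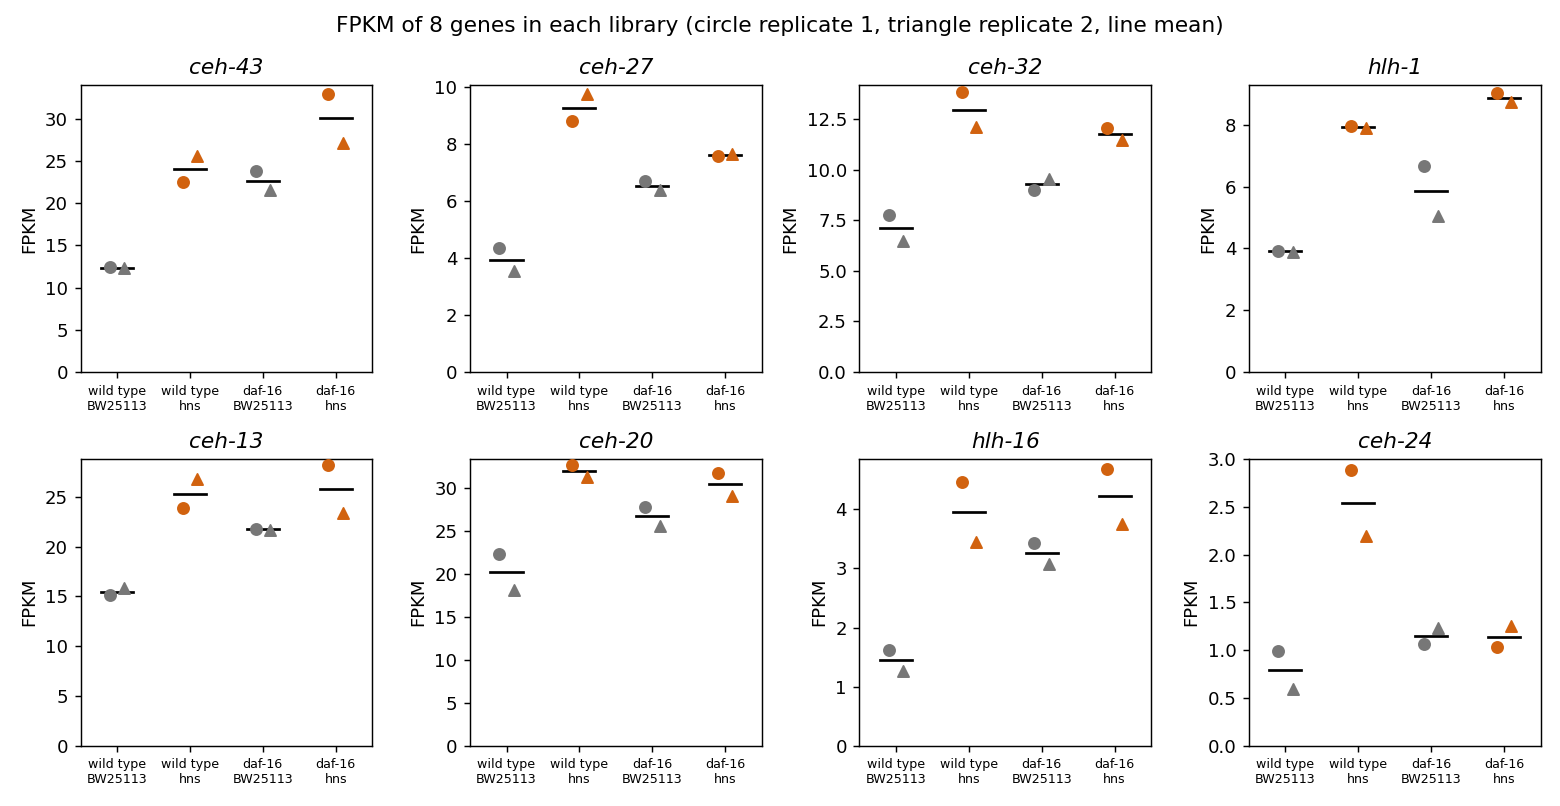
FPKM of ceh-43, ceh-27, ceh-32, hlh-1, ceh-13, ceh-20, hlh-16 and ceh-24 in each of 8 libraries, by genotype and food, with circles for replicate 1, triangles for replicate 2 and lines for group means. In each panel both wild-type libraries on control food lie below the other 6.

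Several other regulators of embryonic patterning missed the threshold in wild type with group values that did not overlap. ceh-32, an optix-type gene of head development, stood at 7.75 and 6.47 FPKM on control food versus 13.8 and 12.1 FPKM on hns food (log2 fold change 0.79 ± 0.12, limma adjusted p = 0.0525). The muscle regulator hlh-1 stood at 3.93 and 3.89 FPKM against 7.98 and 7.90 FPKM (0.86 ± 0.14, limma adjusted p = 0.0567). The labial-type Hox gene ceh-13 stood at 15.1 and 15.8 FPKM against 23.9 and 26.8 FPKM (0.68 ± 0.11, limma adjusted p = 0.0595). In each of these 3 genes both libraries on hns food were above both on control food.

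The same order was seen in 3 further genes with adjusted p-values under 0.1. ceh-20, the Extradenticle/PBX orthologue and a Hox cofactor, had 22.3 and 18.2 FPKM on control food and 32.7 and 31.3 FPKM on hns food (log2 fold change 0.64 ± 0.11, limma adjusted p = 0.0658). hlh-16, which acts in an interneuron pair, had 1.63 and 1.27 FPKM against 4.46 and 3.45 FPKM (1.02 ± 0.18, limma adjusted p = 0.0664). ceh-24, an NK-2 type gene of vulval muscles and head motor neurons, had 0.992 and 0.597 FPKM against 2.89 and 2.2 FPKM (0.98 ± 0.20, limma adjusted p = 0.0883). Its control values lay under the level of 1 FPKM.

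Over the 75 tested genes, the wild-type groups did not overlap with hns food higher in 39 (52%, against 25.3% of all genes tested) and with hns food lower in 10 (13.3%, against 28.9%). At an unadjusted p under 0.05, 24 were higher and 1 lower, and 11.2% of all genes tested were higher at that level. The median log2 fold change was 0.24 over the 75 genes, with 54 above 0, and -0.0034 over all genes tested, with 7154 of 14564 above 0. Under quantile normalization the median over the 75 was 0.08, with 43 above 0, and under median scaling 0.11, with 46 above 0. By family, the medians were 0.35 for ceh (37 of 51 above 0), 0.21 for hlh (12 of 14) and 0.11 for tbx (5 of 10). Without replicate 1 of wild type on hns food the ceh median was 0.23 and the hlh median 0.14, without its replicate 2 the tbx median was 0.07, and without replicate 2 on control food the ceh median was 0.24. Under quantile normalization the medians were 0.08 for ceh, 0.07 for hlh and -0.0645 for tbx, and under median scaling 0.22, 0.08 and -0.0198.

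Summed FPKM was also taken over each family. The ceh sums were 611.8 and 601.7 FPKM in wild type on control food and 687.4 and 659 FPKM on hns food. The hlh sums were 123.8 and 113.3 FPKM against 150.1 and 136.6 FPKM, whereas the tbx sums were 96.91 and 96.94 FPKM against 95.35 and 97.23 FPKM. The ceh and hlh sums on hns food were above those on control food in wild type, and the tbx sums overlapped.

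Over the 75 genes together, lower genes had larger positive values, as they did among all genes. For the 27 tested genes with a mean under 3 FPKM the median log2 fold change in wild type was 0.45, against 0.23 over all genes in that range. For the 23 genes at 3 to 10 FPKM it was 0.39, against 0.19. For the 25 genes above 10 FPKM it was 0.01, against -0.07. These medians were therefore above those of all genes in each range of level. The hlh genes did not follow that order, with medians of 0.13 under 3 FPKM (6 genes), 0.72 at 3 to 10 FPKM (5 genes) and 0.20 above 10 FPKM (3 genes). Replicate 1 of wild type on hns food was the highest of the 8 libraries in 27 of the 75 genes (36%) and in 23.3% of all genes tested. Without it the median over the 75 genes was 0.22.

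**Figure D3:**
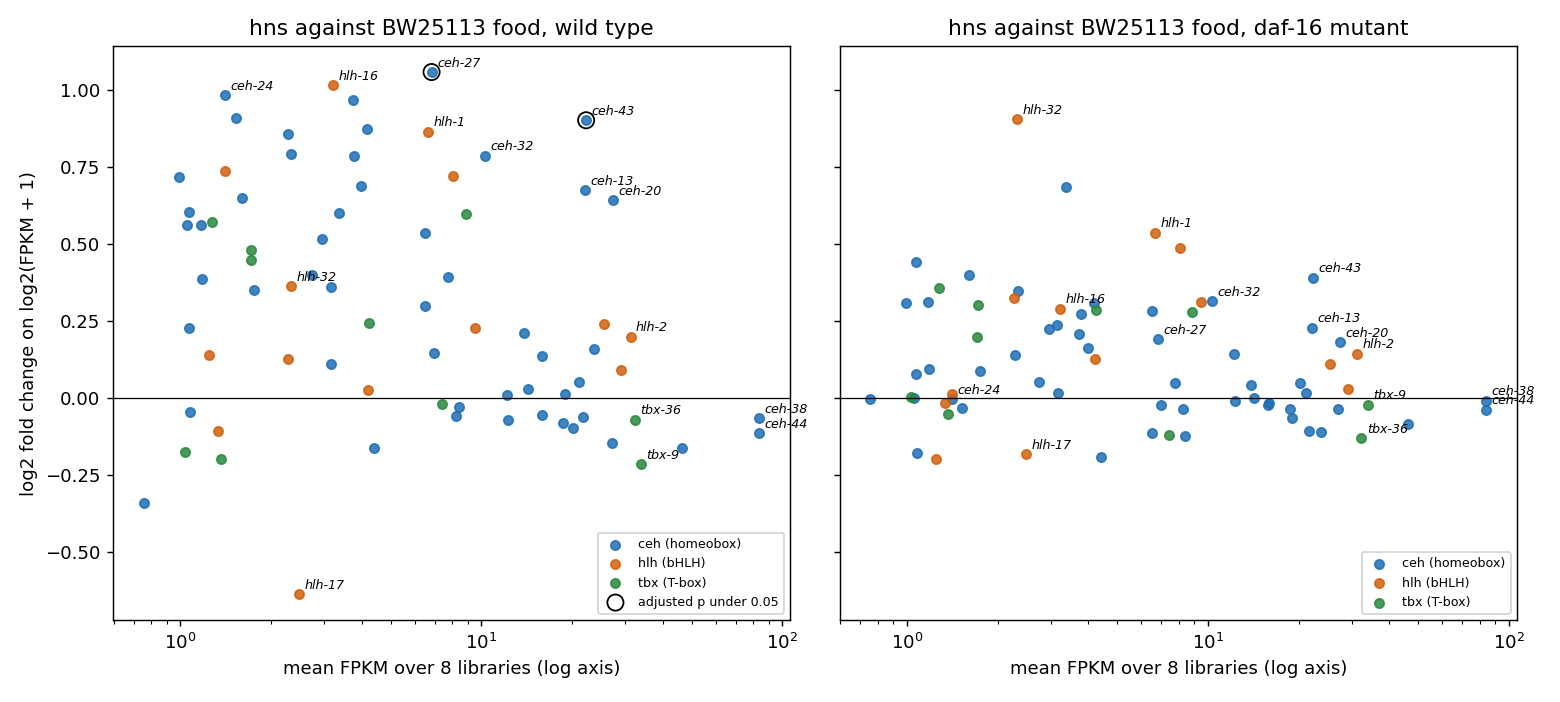
log2 fold change for hns against control food on the log2(FPKM + 1) scale, in wild type and in the daf-16 mutant, against mean FPKM over 8 libraries (log axis), for the 75 tested genes coloured by family, with calls circled. The 2 circled genes in wild type are ceh-27 and ceh-43, and there is none in the mutant.

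In daf-16 mutants no gene of the 3 families was called for the food by limma, against 0.405% of all genes tested (0.199% higher). At an unadjusted p under 0.05, 3 of the 75 were higher and 0 lower, near the 3.71% of all genes higher at that level. The libraries did not overlap with hns food higher in 24 genes (32%, against 19.3% of all genes) and with hns food lower in 4 (5.33%, against 14.7%). The median was 0.05 over the 75 genes, 0.05 for ceh, 0.14 for hlh and 0.10 for tbx, and under median scaling the median over the 75 was -0.0098. Leaving out replicate 2 of daf-16 on hns food gave 0.12 over the 75 genes, 0.10 for ceh and -0.0527 for tbx. Leaving out replicate 1 of daf-16 on control food gave 0.08 over the 75 genes and 0.08 for ceh, and leaving out its replicate 2 gave 0.09 over the 75 genes and 0.18 for tbx.

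The genes that led in wild type had these values in the mutant. ceh-43 stood at 23.8 and 21.5 FPKM on control food versus 33 and 27.2 FPKM on hns food (log2 fold change 0.39 ± 0.12, limma adjusted p = 0.569). ceh-27 stood at 6.68 and 6.39 FPKM against 7.57 and 7.63 FPKM (0.19 ± 0.13, limma adjusted p = 0.853). hlh-1 stood at 6.66 and 5.07 FPKM against 9.04 and 8.74 FPKM (0.54 ± 0.14, limma adjusted p = 0.424). In all 3 genes the hns libraries were higher, though none passed the test.

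The sign of the food effect was shared by both genotypes in 63 of the 75 tested genes, 44 of them above 0 in both, and in 10782 of 14564 genes tested. The 2 effects use different libraries and had Pearson's r = 0.588 and Spearman's rho = 0.667 over the 75 genes, beside 0.214 and 0.532 over all genes tested, given as a description, since genes are not replicates and share the level dependence above. Whether the food effect differed between genotypes was tested as an interaction. No gene of the families was called by limma (0.0961% of all genes tested, 0.0412% larger in wild type), and at an unadjusted p under 0.05, 9 were larger in wild type and 0 larger in the mutant, with 2.9% of all genes larger in wild type. The largest differences were in ceh-24 (0.99, limma adjusted p = 1), ceh-30 (0.94, limma adjusted p = 1) and ceh-27 (0.87, limma adjusted p = 0.771).

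Averaged over genotypes, 4 genes rose on hns food and 0 fell, or 5.33% of the 75 tested against 1.24% called higher and 1.76% called in either direction among all genes. They were hlh-1 (log2 fold change 0.70 ± 0.10, limma adjusted p = 0.031), ceh-43 (0.65 ± 0.08, limma adjusted p = 0.0266), ceh-27 (0.62 ± 0.09, limma adjusted p = 0.0328) and ceh-32 (0.55 ± 0.09, limma adjusted p = 0.0402). The libraries on hns food were higher in both genotypes for each of them. At an unadjusted p under 0.05, 26 of the 75 were higher and 1 lower, against 12.4% of all genes higher. ceh-13 missed the threshold at 0.45 ± 0.08 (limma adjusted p = 0.0512). Leaving out any 1 library left 0 or 1 of these calls: hlh-1 remained without replicate 1 of daf-16 on control food, ceh-43 without replicate 2 of daf-16 on hns food, and none without any other library. Quantile normalization gave 0 and median scaling 1.

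By subgroup of homeobox genes, described by counts and medians, the sine oculis genes had a wild-type median of 0.79 and a daf-16 median of 0.31, with all 3 above 0 in both. Beside ceh-32 they comprised the neighbouring genes ceh-34 and ceh-33. Without the libraries on hns food ceh-33 would not have passed the filter, so its sign was fixed in part by the filter. ceh-34, a regulator of pharyngeal neurons, had 2.71 and 2.40 FPKM in wild type on control food and 6.91 and 4.35 FPKM on hns food (log2 fold change 0.87 ± 0.27, limma adjusted p = 0.215). The 7 paired-type and LIM genes, many of them neuron identity genes, showed medians of 0.65 (wild type) and 0.14 (daf-16), and all 7 were above 0 in wild type. Of the 7, ceh-8 and ceh-17 would not have passed the filter without the wild-type libraries on hns food, so their sign in wild type was fixed in part by the filter. The Otx-type gene ceh-36 had 2.36 and 3.18 FPKM in wild type on control food and 4.12 and 6.12 FPKM on hns food.

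The 12 tested NK, Distal-less and other ANTP genes showed medians of 0.58 (wild type) and 0.14 (daf-16), and 11 of 12 were above 0 in wild type, with 2 called. Among the 12, ceh-2 would not have passed the filter without the libraries on hns food, so its sign was fixed in part by the filter. The engrailed orthologue ceh-16, known for its role in seam cells of the epidermis, had 2.57 and 1.78 FPKM in wild type on control food and 5.95 and 4.46 FPKM on hns food. For the 4 Hox and PBX genes the wild-type median was 0.39. ceh-13 and ceh-20 are given above, and the PBX-type genes were ceh-40, at 15.3 and 15.3 FPKM against 15.6 and 18.4 FPKM, and ceh-60, at 7.54 and 8 FPKM against 6.42 and 8.92 FPKM.

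The CUT genes, the most abundant, showed medians of -0.07 (wild type) and -0.01 (daf-16). ceh-44 had 84.7 and 92.1 FPKM in wild type on control food and 80.7 and 82.3 FPKM on hns food, and in ceh-38 the values were 84.8 and 86 against 82.9 and 80.1 FPKM. The exception was ceh-48, a broadly neuronal CUT gene, with 3.16 and 1.93 FPKM on control food and 5.93 and 4.23 FPKM on hns food. It did not pass the test. The 16 remaining tested ceh genes, which were assigned to no subgroup, had a wild-type median of 0.02 with 9 above 0 and a daf-16 median of -0.02 with 4 above 0.

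**Figure D4:**
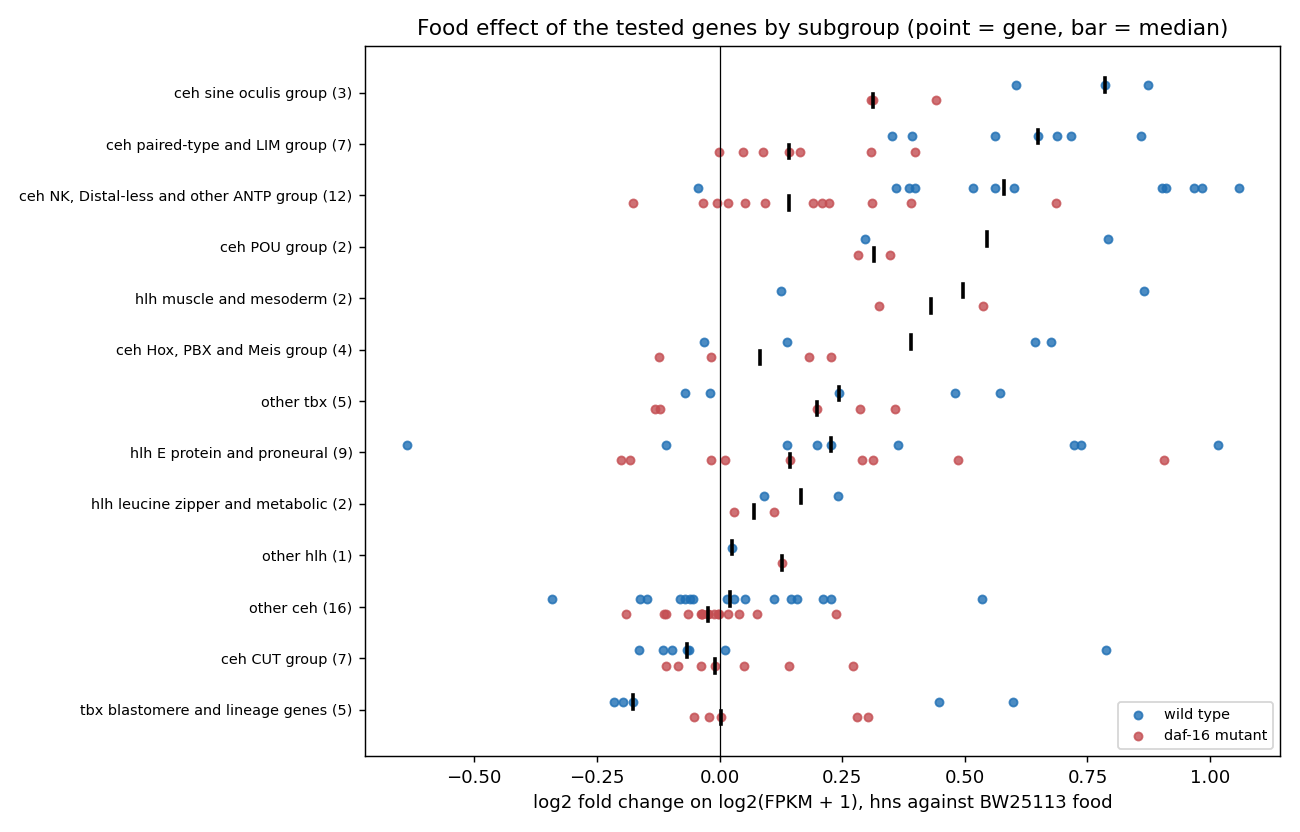
log2 fold change for hns against control food on the log2(FPKM + 1) scale of each tested gene (points), by subgroup, in wild type and in daf-16 mutants, with bars for medians and the number of tested genes in brackets. The sine oculis genes have the highest wild-type median, 0.79, and the CUT genes lie around 0 apart from ceh-48. Of the sine oculis genes, ceh-33 passed the filter only with the libraries on hns food.

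Among bHLH genes, hlh-1 and the Twist orthologue hlh-8 formed the muscle and mesoderm pair. hlh-8 overlapped between foods in wild type, at 2.43 and 2.15 FPKM on control food and 1.92 and 3.41 FPKM on hns food. In daf-16 its libraries did not overlap, at 1.40 and 2.07 FPKM against 2.48 and 2.32 FPKM. The 9 tested E protein and proneural genes showed medians of 0.23 (wild type) and 0.14 (daf-16), and none was called. The proneural gene hlh-14 had 4.15 and 5.69 FPKM against 6.95 and 10.8 FPKM in wild type, and 7.62 and 7.47 FPKM against 11.4 and 10.6 FPKM in daf-16 (averaged log2 fold change 0.60 ± 0.15, limma adjusted p = 0.118). Its groups did not overlap in either genotype.

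The Olig-type genes hlh-17 and hlh-32 had opposite signs. hlh-17, known from sheath glia, had 3.59 and 3.08 FPKM in wild type on control food and 1.77 and 1.79 FPKM on hns food (log2 fold change -0.64 ± 0.21, limma adjusted p = 0.237). hlh-32 ran from 0.623 to 4.80 FPKM over the 8 libraries, with replicates far apart (log2 fold change in daf-16 0.91 ± 0.47, limma adjusted p = 0.823). Genes as alike as hlh-17, hlh-31 and hlh-32 may share reads, so their values are uncertain, and their sequences were not compared here.

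No T-box gene was called in any comparison. tbx-2, required for pharyngeal muscle, had 7.35 and 6.23 FPKM in wild type on control food and 12.6 and 9.14 FPKM on hns food (log2 fold change 0.60 ± 0.21, limma adjusted p = 0.256). tbx-7 had 0.442 and 0.872 FPKM against 1.29 and 1.61 FPKM (0.57 ± 0.20, limma adjusted p = 0.267). In both genes the hns libraries were the higher ones. tbx-8 and tbx-9 act redundantly in embryonic morphogenesis and lie next to each other, yet their levels differed: tbx-9 had 30.4 to 38.1 FPKM and tbx-8 1.08 to 2.39 FPKM.

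The pair also differed in the order of the wild-type libraries. tbx-9 had 35.7 and 36.9 FPKM on control food and 30.4 and 31.9 FPKM on hns food, while tbx-8 had 1.08 and 1.17 FPKM against 1.95 and 1.84 FPKM. Neither was called. The redundant pair tbx-37 and tbx-38, which act in early mesoderm induction, stayed between 0.740 and 1.65 FPKM in all libraries, and, as close paralogues, they may split reads between them.

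The genotypes were compared on each food. On control food no gene of the families was called by limma (0.261% of all genes tested, 0.151% higher in daf-16), while at an unadjusted p under 0.05, 10 were higher in daf-16 and 1 lower, against 6.55% of all genes higher. The libraries did not overlap with daf-16 higher in 28 genes (37.3%, against 23.5% of all genes) and lower in 5 (6.67%, against 16.3%). The largest value was that of ceh-43 (log2 fold change 0.82 ± 0.12, limma adjusted p = 0.0943), followed by hlh-16 (0.80 ± 0.18, limma adjusted p = 0.225), ceh-30 (0.67 ± 0.22, limma adjusted p = 0.397) and ceh-27 (0.61 ± 0.13, limma adjusted p = 0.187). This comparison shares its wild-type libraries with the food comparison.

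On hns food 0 genes were called by limma (0.233% of all genes tested, 0.165% higher), with 2 higher and 4 lower at an unadjusted p under 0.05, against 4.62% of all genes higher. Non-overlap was 11 genes higher in daf-16 (14.7%, against 17.5%) and 15 lower (20%, against 17.3%). In 8 of the 75 genes (10.7%, against 2.32% of all genes tested) the libraries did not overlap on either food, with daf-16 higher on control food and lower on hns food. Averaged over foods 0 were called by limma (0.831% of all genes tested, 0.563% higher in daf-16), with 7 higher and 2 lower at an unadjusted p under 0.05, against 8.54% of all genes higher. The nearest was ceh-43, higher in daf-16 on both foods (averaged log2 fold change 0.56 ± 0.08, limma adjusted p = 0.0502). It was called with a pseudocount of 0.1, with robust variance estimation and with genes listed at 0 in any library left out. ceh-18, a POU gene of the gonadal sheath, had the lowest averaged value among homeobox genes, with 7.20, 5.87, 10.5 and 6.39 FPKM in wild type and 4.11, 5.71, 7.10 and 5.26 FPKM in daf-16, which overlapped.

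Both wild-type libraries on control food lay below the other 6 libraries in 23 of the 75 genes (30.7%, against 10% of all genes tested) and above them in 2 (2.67%, against 7.88%), ceh-49 and tbx-36. The 23 comprised 14 ceh, 5 hlh and 4 tbx genes and included ceh-13, ceh-20, ceh-24, ceh-27, ceh-32, ceh-43, hlh-1, hlh-14, hlh-16, tbx-7 and tbx-8. In ceh-43 the 2 values of 12.4 and 12.3 FPKM compare with 21.5 FPKM, the lowest of the other 6. In hlh-16 the 2 values of 1.63 and 1.27 FPKM compare with 3.08 FPKM.

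**Figure D5:**
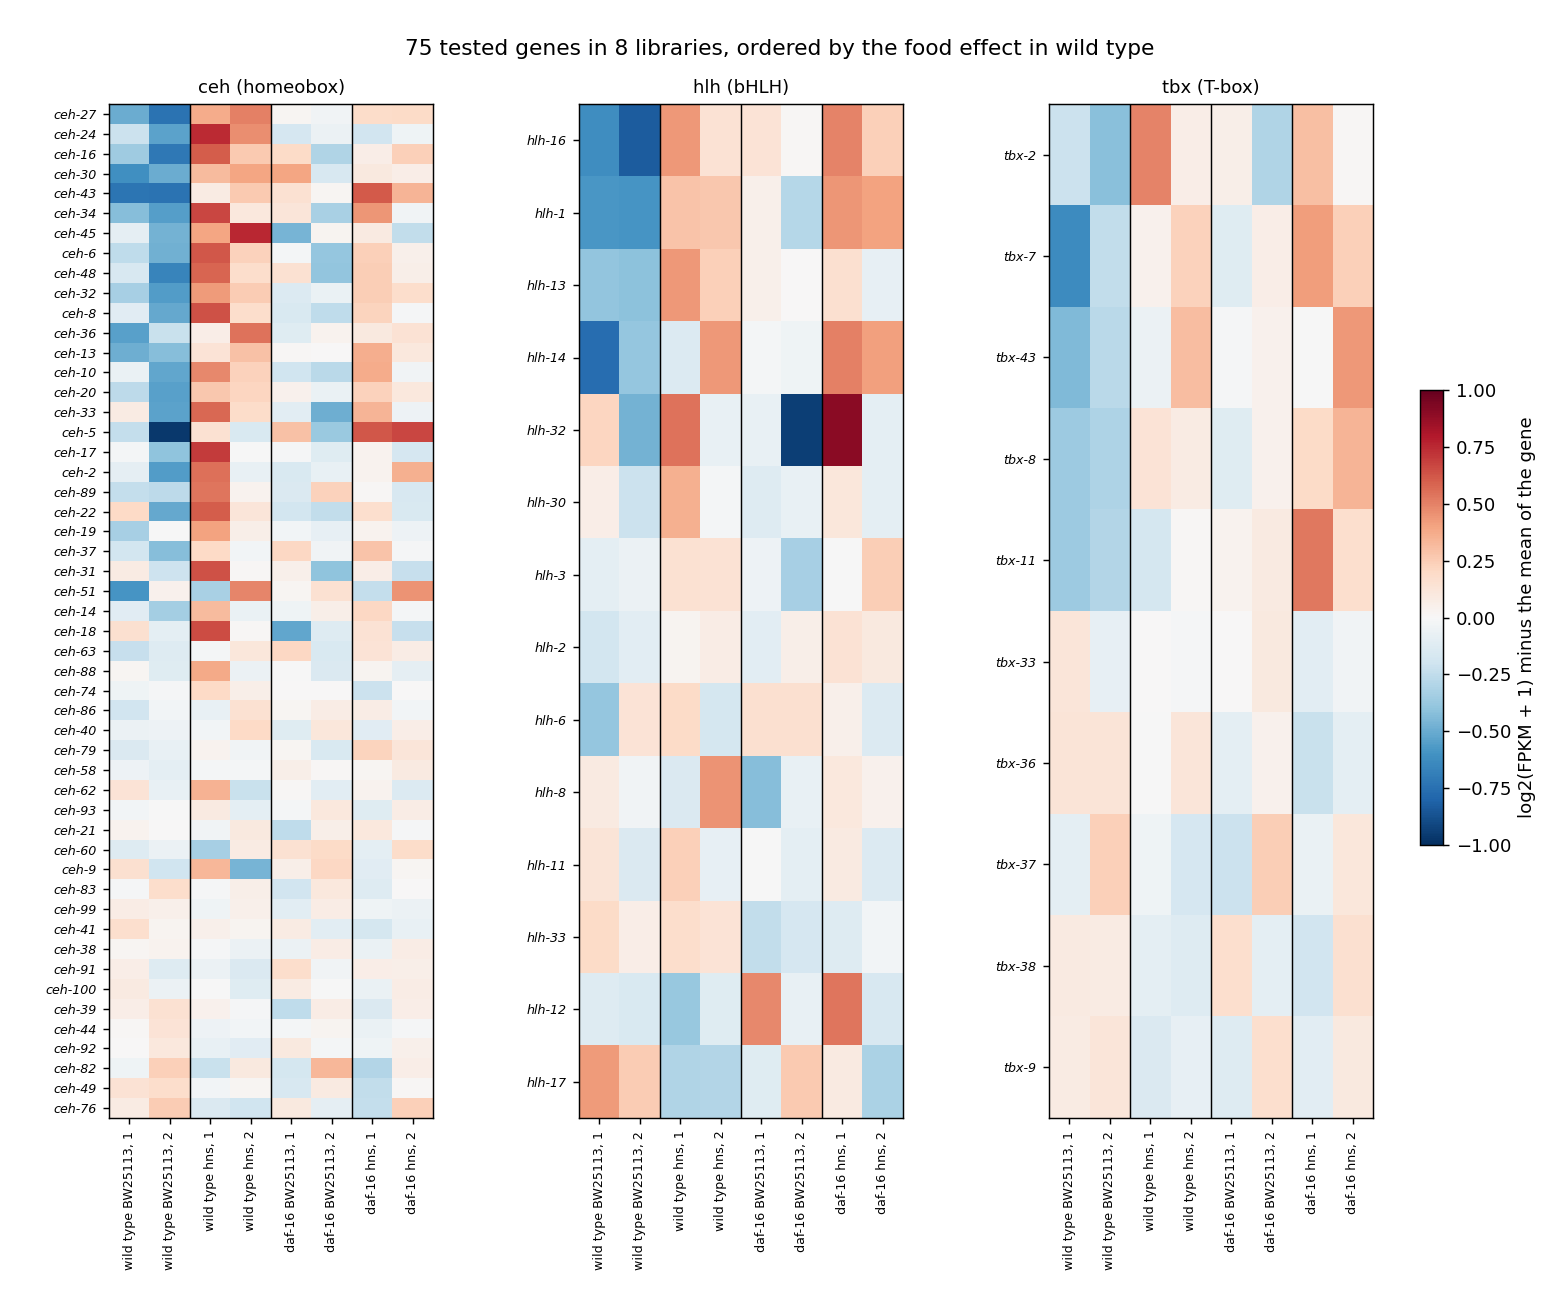
Each tested gene in each of 8 libraries as log2(FPKM + 1) minus that gene's mean over the 8 (red above, blue below, colours end at 1 either way), by family and ordered by the food effect in wild type. The first 2 columns, wild type on control food, are blue for most genes in the upper part of each panel.

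Genes of the same families with other names gave these values. Of 29 tested homeobox genes, 28 were above 0 for hns food in wild type, against 49.1% of all genes tested, with a median of 0.52. By limma 0 of the 29 were called there and 14 were higher at an unadjusted p under 0.05, against 11.2% of all genes. Without the libraries on hns food ttx-3 and lim-4 would not have passed the filter, so their sign was fixed in part by the filter. Averaged over genotypes alr-1 rose (0.65 ± 0.10, limma adjusted p = 0.0382). Of 15 tested bHLH and partner genes, 11 were above 0 in wild type, and the muscle regulator unc-120, a MADS-box gene listed as a partner of hlh-1, rose there (0.81 ± 0.12, limma adjusted p = 0.0464). The proneural gene lin-32 rose averaged over genotypes (0.94 ± 0.14, limma adjusted p = 0.0372). The leucine zipper gene mxl-3, a repressor of lipases, fell on hns food averaged over genotypes (-0.64 ± 0.06, limma adjusted p = 0.00955). Its levels went from 48.2 and 50.7 FPKM to 29.6 and 29.3 FPKM in daf-16 (-0.73 ± 0.09, limma adjusted p = 0.0381) and from 68.7 and 57.9 FPKM to 42.5 and 43.1 FPKM in wild type (-0.55 ± 0.09, limma adjusted p = 0.0595). It was also lower in daf-16 averaged over foods (-0.43 ± 0.06, limma adjusted p = 0.0484). The calls of alr-1, unc-120 and lin-32 were lost without any 1 of the 8 libraries. The averaged food call of mxl-3 was lost without replicate 2 of daf-16 on control food or replicate 1 of daf-16 on hns food, its call in daf-16 without any library other than those of wild type on control food, and its averaged genotype call without any 1 library. Neither of the 2 tested T-box genes with other names, sea-1 and mls-1, was above 0 in wild type. Without the libraries on control food mls-1 would not have passed the filter, so its sign was fixed in part by the filter.

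Markers of other cells and stages moved alongside these genes, and their part in the results was not tested. Of 10 genes of the embryonic epidermis and its cuticle, 6 rose in wild type on hns food, among them sqt-3, dpy-17, noah-2 and dpy-14, and the list had a median of 1.52. Their summed level was 295.4 to 322.1 FPKM in wild type on control food, 703.6 to 742.2 FPKM in wild type on hns food, 468.4 to 554.9 FPKM in daf-16 on control food and 620.3 to 815.5 FPKM in daf-16 on hns food. As in the 23 genes above, wild type on control food was the lowest group. None of the 10 was at 0 in all libraries. The wild-type calls of sqt-3, dpy-17, noah-2 and dpy-14 were lost without any 1 wild-type library, and that of dpy-14 also without either daf-16 library on control food.

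The 16 early zygotic genes had sums of 435.4 to 472 FPKM and 396 to 461.5 FPKM in wild type on control and hns food, and of 419 to 455.7 FPKM and 420.1 to 463.4 FPKM in daf-16, so these sums overlapped. Most of each sum was pal-1, at 298 to 378 FPKM, so the overlap does not describe the other genes of the list. Of the 13 early zygotic genes that were tested, pal-1 among them, 11 were above 0 for hns food in wild type, with a median of 0.13. Of these 13, 1, ref-2, rose averaged over genotypes, a call lost without any 1 library. The 10 neuronal genes summed to 669.3 to 745.2 FPKM in wild type on control food and 691.1 to 814 FPKM on hns food, where snb-1 alone made up 407 to 451 FPKM. Singly, 9 of the 10 were above 0 in wild type (median 0.25) and 10 in daf-16 (median 0.18). Over the 75 genes the medians were 0.24 in wild type and 0.05 in daf-16. The 8 body muscle genes summed to 4791 to 5065 FPKM and 4940 to 5345 FPKM. Of the 6 pharyngeal genes, 5 were above 0 in wild type, with a median of 0.55, and the sums were 66.1 to 104.7 FPKM and 86.49 to 165.8 FPKM. Without the libraries on hns food phat-1 would not have passed the filter, so its sign was fixed in part by the filter. The 6 intestinal genes summed to 2618 to 2733 FPKM and 3260 to 3373 FPKM in wild type, and to 2857 to 2967 FPKM and 3307 to 3320 FPKM in daf-16. These sums were higher on hns food in both genotypes, but most of each was mtl-2 (1493 to 2011 FPKM) and asp-1 (535 to 1003 FPKM). Singly, 5 of the 6 were above 0 in wild type and 4 in daf-16, and ges-1 went from 13.2 and 13.4 FPKM to 11.4 and 11.4 FPKM in wild type. The 6 vitellogenin genes summed to 10230 to 10430 FPKM on control food and 8600 to 9655 FPKM on hns food in wild type. The 13 germline genes summed to 2709 to 2761 FPKM on control food and 2330 to 2592 FPKM on hns food, and the 13 oocyte and eggshell genes to 10480 to 10640 FPKM and 9139 to 9905 FPKM. Germline and oocyte sums were thus lower on hns food in wild type, where 0 genes of these lists were called by limma, with 3 germline genes and 1 oocyte gene at an unadjusted p under 0.05.

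Neighbouring genes and possible near-identical copies limit some of these values. Adjacent pairs were ceh-33 and ceh-34, ceh-36 and ceh-37, ceh-30 and ceh-31, ceh-21 and ceh-41, and tbx-8 and tbx-9, and the sources used here do not say whether counting used strand. The REF-1 family copies hlh-25 and hlh-27 had identical FPKM in 3 libraries. The T-box pairs tbx-30 and tbx-42, and tbx-39 and tbx-40, are also adjacent and may share reads. Their sequences were not compared, and none of those 4 genes was tested.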

How the data were processed

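RNA of whole worms was sequenced in 8 libraries, 2 in each of 4 groups taken from the sample labels. The deposited table gives FPKM per gene, for which the submitters' processing notes name Cufflinks 2.2.1, TopHat2 2.0.11 and, as genome build, ce10. Which annotation the authors used, and whether counting was by strand, is not given in the sources used here. FPKM are not counts and depth is not stated. For each library a depth and a length offset (125 to 225 nucleotides) were chosen that put most low values near whole fragments. At that choice between 55.4% and 58.6% lay within 0.15 of whole fragments. The 30% given by chance holds for a depth fixed in advance and not for a best fit. The depths given are therefore rough, and the values were not tested as counts.

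In R 4.3.3, limma 3.58.1 (trend, two-sided) was fitted to log2(FPKM + 1) with 1 mean per group, 4 residual degrees of freedom and 7 comparisons. Genes needed at least 1 FPKM in at least 2 libraries, and p-values were adjusted over all 14564 tested. The fit was tested on simulated data. The genes and lists were chosen with earlier results of these data known.

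Named are the given markers ceh-43, ceh-13, ceh-32 and hlh-1, every called gene, the highest by level and the largest changes per family, and called genes of the other lists. Any other gene named as an example was chosen after its values were seen. The reference annotation, WBcel235, is of another build and served only for names, gene types, neighbours and the transcript lengths behind the rough depths. No sequence was used here. Alternatives changed the pseudocount, the filter, the scaling, the variance estimate, the replicate block and the libraries.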

Additional observations from a re-analysis of the deposited data

Results flagged for a closer look

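On neither food did the genotypes overlap in 8 of the 75 tested genes, with daf-16 higher on control food and lower on hns food. These 8 were 10.7% of the 75, against 2.32% of all genes tested with that order and no overlap. In none of the 8 did the limma interaction pass the threshold. Both genotype comparisons share their wild-type libraries with the food comparison in wild type, so the same values enter both results. The difference between the 2 genotype effects, on the log2(FPKM + 1) scale, was 0.9875 for ceh-24 (0.27 on control food and -0.72 on hns food, adjusted p = 1). It was 0.9432 for ceh-30 (0.67 and -0.27, adjusted p = 1), 0.8675 for ceh-27 (0.61 and -0.25, adjusted p = 0.771), 0.7592 for ceh-16 (0.48 and -0.28, adjusted p = 1) and 0.7254 for hlh-13 (0.43 and -0.30, adjusted p = 1). It was 0.6486 for ceh-89 (0.29 and -0.36, adjusted p = 1), 0.4728 for ceh-32 (0.35 and -0.13, adjusted p = 1) and 0.2665 for ceh-74 (0.03 and -0.24, adjusted p = 1).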

How the results depend on the processing

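In wild type, the count of genes of the 3 families called higher on hns food was 2, and it was 4 with a pseudocount of 0.1, 0 with no filter, 0 with quantile normalization, 1 with median scaling, 6 with robust variance estimation and 0 with only the 4 libraries compared. Averaged over genotypes it was 4, and it was 5 with a pseudocount of 0.1, 6 with robust variance estimation, 1 with no filter, 0 with quantile normalization and 1 with median scaling. With genes listed at 0 in any library left out, an alternative chosen after seeing the data, 7 were called in wild type and 7 averaged over genotypes. For the genotype effect averaged over foods the count was 0, and it was 1 (ceh-43) with a pseudocount of 0.1, with robust variance estimation and with genes at 0 left out. Leaving out each replicate in turn gave 0 to 1 in wild type and 0 to 1 averaged over genotypes. No called value changed sign under these alternatives. The causes were not tested.

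With the replicate number as a block, 10 genes were called in wild type and 12 averaged over genotypes. The labels give the numbers no shared culture or day, and deviations of same-numbered libraries correlated at 0.022 to 0.161 over all genes tested and at 0.341 to 0.621 over the 75 genes. Replicate 1 was the higher library in 44 and 47 of the 75 genes in wild type on control and hns food, and in 39 and 43 in daf-16. Same-numbered libraries thus shared part of their deviations over the 75 genes, and the source of this was not tested. Each comparison of 2 groups has 2 such pairs. As the labels name nothing shared beyond the number, the unpaired fit is the one reported. Median scaling moved the median of all genes in wild type to -0.14 and that of the 75 genes to 0.11. With 2 libraries a group, low levels limit the precision.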
